A study of Mus musculus with 9 samples.

Results

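Toll-like receptors and NOD proteins are sensors with which gut epithelial cells register microbial products, and 10 genes of this system were followed here in mouse colon organoids. They were the Toll-like receptors Tlr1, Tlr2, Tlr3, Tlr4, Tlr5 and Tlr9, the cytosolic receptors Nod1 and Nod2, the adaptor Myd88 and the co-receptor Cd14. The genes were chosen by symbol, through the RefSeq accession that the array design gives for each probe, out of 20660 genes named on the array. Each gene had 1 probe, and all 10 were among the 14033 genes that passed the filter on dim probes. Colon organoids are miniature epithelia grown in culture from colon tissue. Their total RNA was hybridised to 9 Agilent single-colour arrays in 3 groups of 3. The groups were untreated organoids (0 weeks), organoids after 12 weeks and organoids after 60 weeks of treatment with inflammatory reagents that the labels leave unnamed. The labels give neither the mouse strain nor the animals' age, and nothing in them tells whether replicates came from separate animals or cultures, so the p-values measure the spread between these samples, which may be technical. With no untreated culture of the same age at 12 or 60 weeks, effects of the reagents cannot be told apart from those of culture age. In bulk RNA, fewer cells of a type and less RNA per cell cannot be told apart either.

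Toll-like receptors are membrane proteins with a ligand-binding part of leucine-rich repeats and a cytoplasmic TIR domain that recruits adaptors. Tlr2, paired with Tlr1 or Tlr6, binds bacterial lipoproteins, Tlr4 binds lipopolysaccharide together with the small protein encoded by Ly96, and Tlr5 binds flagellin, all mainly at the cell surface. Lbp and Cd14 hand lipopolysaccharide to the Tlr4 complex. Tlr3 and Tlr9 act in endosomes, where Tlr3 binds RNA duplexes and Tlr9 binds DNA rich in unmethylated CpG. Nod1 and Nod2 bind peptidoglycan fragments in the cytosol and signal through the kinase Ripk2. The Toll-like receptors measured here, apart from Tlr3, signal through Myd88, and both receptor families lead to NF-kB and to cytokine and chemokine genes.

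The stretches just upstream of an annotated transcription start are shown for Tlr2 and Tlr3, which were both lower at 60 weeks, for Nod1 and Nod2, which moved in opposite directions, and for the shared adaptor Myd88. Each is the 250 bases before a start listed by RefSeq on GRCm38.p6, written 5′ to 3′ on the gene's own strand. For Myd88 this start is the outer end of the annotated gene, while the annotated spans of Tlr2, Tlr3, Nod1 and Nod2 reach further upstream, so these windows lie partly inside the gene, and that of Tlr3 wholly. Capitals mark a match to the NF-kB consensus in Tlr2 and Tlr3 and to the core of the interferon-stimulated response element, GAAA, any 2 bases and GAAA, in Myd88.
Tlr2, chr3:83841609-83841858, minus strand: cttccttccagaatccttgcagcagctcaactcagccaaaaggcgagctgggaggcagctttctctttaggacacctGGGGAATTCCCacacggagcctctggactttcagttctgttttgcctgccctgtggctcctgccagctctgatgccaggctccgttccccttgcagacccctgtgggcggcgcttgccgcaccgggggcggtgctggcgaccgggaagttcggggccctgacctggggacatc
Tlr3, chr8:45410381-45410630, minus strand: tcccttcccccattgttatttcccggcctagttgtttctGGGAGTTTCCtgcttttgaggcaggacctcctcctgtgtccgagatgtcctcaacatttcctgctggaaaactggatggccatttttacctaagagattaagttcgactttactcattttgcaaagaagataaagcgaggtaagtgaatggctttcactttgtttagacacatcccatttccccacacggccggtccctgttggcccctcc
Myd88, chr9:119340019-119340268, minus strand: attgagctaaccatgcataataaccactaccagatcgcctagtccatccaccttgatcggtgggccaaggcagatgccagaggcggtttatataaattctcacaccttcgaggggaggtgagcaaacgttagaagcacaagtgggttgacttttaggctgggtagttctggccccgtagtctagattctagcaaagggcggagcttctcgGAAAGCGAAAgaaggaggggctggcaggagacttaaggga
Nod1, chr6:54972613-54972862, minus strand: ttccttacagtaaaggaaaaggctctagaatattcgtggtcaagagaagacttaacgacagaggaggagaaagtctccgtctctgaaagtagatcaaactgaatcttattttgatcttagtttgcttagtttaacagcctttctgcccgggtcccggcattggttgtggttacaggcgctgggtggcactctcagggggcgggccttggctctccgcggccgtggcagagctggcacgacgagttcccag
Nod2, chr8:88647097-88647346, plus strand: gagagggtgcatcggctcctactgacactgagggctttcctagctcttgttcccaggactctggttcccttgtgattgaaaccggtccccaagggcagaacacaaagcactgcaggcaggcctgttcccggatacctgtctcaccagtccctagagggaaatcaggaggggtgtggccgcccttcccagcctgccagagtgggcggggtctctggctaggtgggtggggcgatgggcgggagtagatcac

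Such stretches were found in the table for 8 of the 10 genes, with a pair of starts for Tlr1 and for Nod1. Those of Tlr4 and Cd14 were not found in it. Both strands were searched. Of all 32851 promoters of the same length, 7.25% held the NF-kB consensus, 2.98% the response element core and 6.75% the AP-1 motif TGANTCA, which among these 8 genes was found only upstream of Tlr9. In Tlr2 the overlapping matches on both strands lie in a single stretch. None of the 3 motifs was found in the windows of Tlr1, Tlr5, Nod1 or Nod2. These matches describe letters, and binding was not measured.

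On each array 49.2% to 52.7% of probes were called well above background, and no spot was saturated. Replicates correlated across genes at 0.994 to 0.996 at 0 weeks, at 0.977 to 0.992 at 12 weeks and at 0.990 to 0.994 at 60 weeks, where genes are not independent replicates. Replicate 2 of 12 weeks stood apart, since its 2 correlations within the group were 0.978 and 0.977. All 12 epithelial markers, among them Epcam, Cdh1 and Vil1, were well above background on every array. Of 17 leukocyte markers, 5 were above background on all arrays (Itgam, Aif1, Csf1r, Cd3e and Cd4), and Ptprc, Tyrobp, Lyz2 and Cd3d were among those above it on none. Of 11 mesenchymal markers, 3, 3 and 2 were above it on all arrays of 0, 12 and 60 weeks. Vim was so at 12 weeks only, and Col1a1 was above it on no 12 weeks array. Of 8 endothelial markers the counts were 3, 4 and 4. Kdr, Pecam1 and Eng were above it on all arrays, though the other Kdr probe on none, and Vwf on no 0 weeks array. Levels are given as log2 signal relative to the array's 75th percentile, and a probe at that percentile has a level of 0. Changes are log2 fold changes ± SE from limma, and a gene is called when its Benjamini-Hochberg adjusted p over all tested genes is under 0.05. Levels of different genes come from different probes and were not compared.

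After 12 weeks, Nod1 had fallen most among the 10 genes, Tlr1, Tlr5 and Tlr9 were lower too, and Tlr4, Cd14, Nod2 and Myd88 were higher than at 0 weeks. The 12 weeks against 0 weeks comparison asks what differed after the shorter treatment. It called 8 of the 10 genes, 4 higher and 4 lower, where 41.8% of all tested genes were called, 19.1% higher and 22.7% lower. The arrays of both groups did not overlap for those 8 genes, as for 54.6% of all genes. The median change of the 10 genes was -0.12, and that of all tested genes was -0.06. Replicates 2 and 3 of 12 weeks lay in another row of the slide than replicate 1 and all 0 weeks arrays. With the slide and its row as a block, the calls of Tlr1 and Tlr5 ended, and 4473 of all tested genes were called.

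After 60 weeks, the flagellin receptor gene Tlr5 was not above background on any array, Nod1 was lower, as were Tlr2, Tlr3 and Tlr9, and Nod2 and Cd14 were higher than at 0 weeks. This comparison called 7 of the 10 genes, 2 higher and 5 lower, where 32.8% of all tested genes were called, 16.7% higher and 16.1% lower. The arrays did not overlap for 7 genes, as for 56.5% of all genes, and the median change was -0.33 against -0.04 over all genes. All 0 weeks arrays lay in a row of the slide that held no 60 weeks array. Replicate 3 of 60 weeks was on another slide with a scan of its own. With the slide and its row as a block, 2 of the 10 genes (Tlr5 and Nod2) and 1392 of all tested genes were called.

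The 60 weeks against 12 weeks comparison asks what differed between the longer and the shorter treatment. Nod1, Tlr1 and Nod2 were higher at 60 than at 12 weeks, while Tlr5, Tlr3, Tlr4, Tlr2 and Myd88 were lower. These 8 genes were called, 3 higher and 5 lower, where 38.3% of all tested genes were called, 20.7% higher and 17.6% lower. The arrays did not overlap for the 8 genes, as for 47.3% of all genes, and the median change was -0.29 against 0.02 over all genes. Both comparisons against 0 weeks use the same 0 weeks arrays. Without replicate 3 of 12 weeks the count at 60 against 12 weeks was 5. By limma's F test over the 3 groups, each of the 10 genes differed (adjusted p between 4.97e-05 and 0.0349), where 56.7% of all tested genes did.

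**Figure D1:**
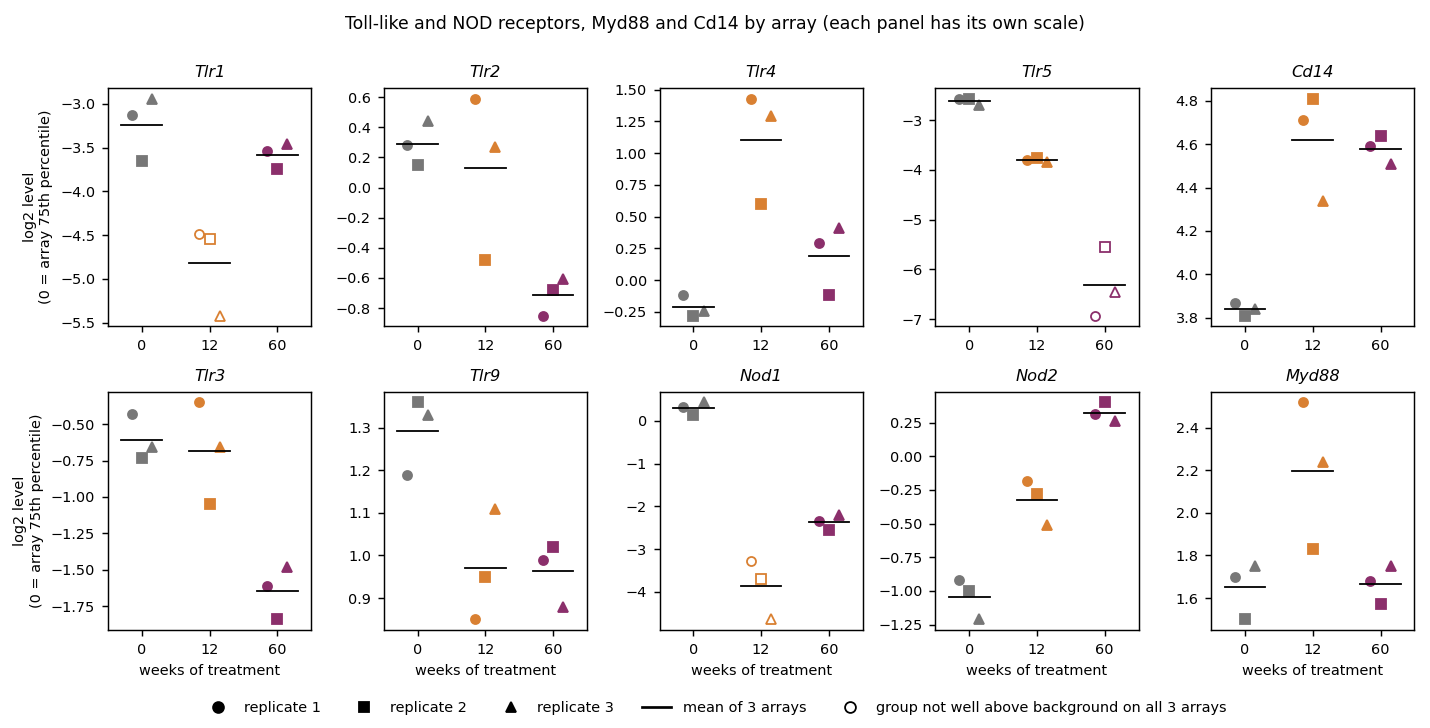
Level of each of the 10 genes on every array (vertical axis, log2 signal relative to the array's 75th percentile, a scale of its own in each panel) against weeks of treatment (horizontal axis), with a bar at the mean of 3 arrays. Open symbols mark groups in which the probe was not well above background on all 3 arrays: Tlr1 and Nod1 at 12 weeks and Tlr5 at 60 weeks. Nod2 lies higher at 60 than at 12 weeks and higher at 12 than at 0 weeks, and Nod1 lies lowest at 12 weeks.

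Among the cytosolic receptors, Nod1 (chromosome 6), which senses peptidoglycan fragments carrying diaminopimelic acid, had levels of 0.32, 0.13 and 0.43 at 0 weeks. On the 12 weeks arrays it had -3.27, -3.69 and -4.64, and on the 60 weeks arrays -2.34, -2.56 and -2.20. No array of a group reached those of another, and the order of the groups was 12 weeks lowest, then 60 weeks, then 0 weeks. It fell by 4.16 ± 0.31 on the log2 scale at 12 against 0 weeks, which is 17.9-fold (adjusted p = 2.78e-05). It fell by 2.66 ± 0.31 at 60 against 0 weeks (adjusted p = 0.000386), and at 60 against 12 weeks it rose by 1.5 ± 0.31 (adjusted p = 0.00658). The probe was well above background on 2 of the 3 arrays at 12 weeks and on all others, so the 12 weeks values lie near the detection limit. With normexp, another background correction, the changes were -2.65 (12 against 0 weeks), -1.91 (60 against 0 weeks) and 0.74 (60 against 12 weeks), each still called. The 60 against 0 weeks call of Nod1 ended with slide and row as a block (-1.85, adjusted p = 0.0588).

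Nod2 (chromosome 8), the receptor for muramyl dipeptide, went the other way in both comparisons against 0 weeks. Its levels were -0.92, -1.0 and -1.21 on the 0 weeks arrays, -0.18, -0.28 and -0.51 on the 12 weeks arrays and 0.31, 0.40 and 0.26 on the 60 weeks arrays. The 3 groups did not overlap, with 60 weeks highest and 0 weeks lowest. The rise was 0.72 ± 0.12 at 12 against 0 weeks (adjusted p = 0.00225), 1.36 ± 0.12 at 60 against 0 weeks (adjusted p = 9.07e-05) and 0.64 ± 0.12 at 60 against 12 weeks (adjusted p = 0.00454). Nod2 was called in all 3 comparisons under every alternative that gave a value for it.

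**Figure D2:**
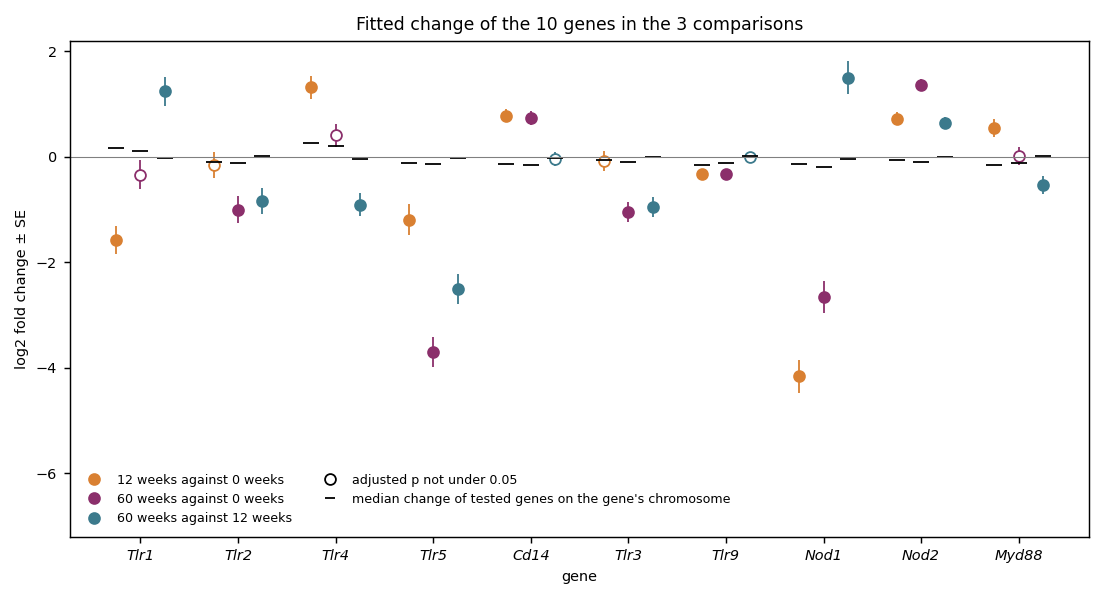
Fitted log2 fold change ± SE (vertical axis) of the 10 genes (horizontal axis) at 12 against 0, 60 against 0 and 60 against 12 weeks. Open circles mark an adjusted p not under 0.05, and short bars mark the median change of tested genes on the gene's chromosome. The points of Tlr5 against 60 weeks arrays rest on a probe at background there, so their size is not a measured fold. Nod1 at 12 weeks and Tlr5 at 60 weeks lie lowest, and Nod2 lies above 0 in each comparison.

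Of the receptors that act at the cell surface, the flagellin receptor gene Tlr5 (chromosome 1) went below detection at 60 weeks. Its levels were -2.58, -2.57 and -2.70 at 0 weeks and -3.81, -3.77 and -3.84 at 12 weeks. At 60 weeks its probe read -6.93, -5.56 and -6.45 and no array called it well above background. The groups did not overlap, with 0 weeks highest and 60 weeks lowest. It fell by 1.19 ± 0.29 at 12 against 0 weeks (adjusted p = 0.012). This SE rests on a spread shared with the 60 weeks arrays, whose SD was 0.69, against 0.07 at 0 and 0.03 at 12 weeks. At 60 weeks it was at least 4.29-fold lower than at 0 weeks (adjusted p = 4.55e-05) and at least 1.88-fold lower than at 12 weeks (adjusted p = 0.000475). These bounds set the 60 weeks arrays to the lowest signal called well above background on each array, or to the probe's own value where that was higher. With slide and row as a block the 12 against 0 weeks call ended (-1.19, adjusted p = 0.096). With normexp the changes were -0.63 (12 against 0 weeks), -1.02 (60 against 0 weeks) and -0.39 (60 against 12 weeks), each still called.

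Tlr1 (chromosome 5), a partner of Tlr2, was lowest at 12 weeks. It had -3.13, -3.65 and -2.94 on the 0 weeks arrays, -4.49, -4.55 and -5.42 on the 12 weeks arrays and -3.54, -3.74 and -3.46 on the 60 weeks arrays. The 12 weeks arrays lay below all others, while 0 and 60 weeks overlapped. The probe was well above background on 1 of the 3 arrays at 12 weeks and on every array at 0 and 60 weeks. It fell by 1.58 ± 0.27 at 12 against 0 weeks (adjusted p = 0.0025), and at 60 against 12 weeks it rose by 1.24 ± 0.27 (adjusted p = 0.0089). At 60 against 0 weeks the change was -0.34 ± 0.27 (adjusted p = 0.373, 95% interval -0.96 to 0.29). With normexp the called changes were -0.55 and 0.49, both still called. The 12 against 0 weeks call ended with slide and row as a block (-1.25, adjusted p = 0.0555).

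Tlr2 (chromosome 3) was read by 10 spots on the array, whose spread within an array was 4.15% to 7.14% of their mean. Its levels were 0.28, 0.15 and 0.44 on the 0 weeks arrays, 0.59, -0.48 and 0.27 on the 12 weeks arrays and -0.85, -0.68 and -0.61 on the 60 weeks arrays. All 60 weeks arrays lay below the rest, and the 12 weeks arrays spread across the 0 weeks range, with replicate 2 lowest. Tlr2 fell by 1.0 ± 0.25 at 60 against 0 weeks (adjusted p = 0.0153), and at 60 against 12 weeks by 0.84 ± 0.25 (adjusted p = 0.0278). The change at 12 against 0 weeks was -0.16 ± 0.25 (adjusted p = 0.62, 95% interval -0.73 to 0.40). The 60 against 0 weeks call ended when replicate 3 of 0 weeks was left out (adjusted p = 0.0567), when replicate 1 of 60 weeks was (adjusted p = 0.0555) and with slide and row as a block (-0.36, adjusted p = 0.596). The 60 against 12 weeks call ended in 8 of 21 alternatives, among them without any single 60 weeks array and without replicate 1 or 3 of 12 weeks.

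Tlr4 (chromosome 4), the lipopolysaccharide receptor, was highest at 12 weeks. It had -0.12, -0.28 and -0.24 on the 0 weeks arrays, 1.43, 0.60 and 1.29 on the 12 weeks arrays and 0.29, -0.12 and 0.41 on the 60 weeks arrays. The 12 weeks arrays lay above all others, and replicate 2 of 60 weeks was within the 0 weeks range. Tlr4 rose by 1.32 ± 0.22 at 12 against 0 weeks (adjusted p = 0.00233) and fell by 0.91 ± 0.22 at 60 against 12 weeks (adjusted p = 0.0141). At 60 against 0 weeks the change was 0.41 ± 0.22 (adjusted p = 0.2, 95% interval -0.11 to 0.92). Tested genes on chromosome 4 had a median change of 0.26 at 12 against 0 weeks. With each chromosome's median subtracted, the Tlr4 change was 1.07 (adjusted p = 0.00664). The 60 against 12 weeks call ended with slide and row as a block (-0.86, adjusted p = 0.0515) and when replicate 3 of 12 weeks was left out (adjusted p = 0.0521). The probe had 2 spots, which on replicate 2 of 60 weeks read 271 and 488 intensity units.

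Cd14 (chromosome 18), the co-receptor that passes lipopolysaccharide on to Tlr4, was higher in both treated groups. Its levels were 3.87, 3.81 and 3.84 on the 0 weeks arrays, 4.71, 4.81 and 4.34 on the 12 weeks arrays and 4.59, 4.64 and 4.51 on the 60 weeks arrays. The 0 weeks arrays lay below all others, and 12 and 60 weeks overlapped. The rise was 0.78 ± 0.13 at 12 against 0 weeks (1.72-fold, adjusted p = 0.00189) and 0.74 ± 0.13 at 60 against 0 weeks (1.67-fold, adjusted p = 0.00295). At 60 against 12 weeks the change was -0.04 ± 0.13 (adjusted p = 0.823, 95% interval -0.33 to 0.25). The 60 against 0 weeks call ended with slide and row as a block, where the change was 0.90 (adjusted p = 0.0768). Cd14 is also a gene of monocytes and macrophages. The summed level of the leukocyte markers, in multiples of the array's 75th percentile, was 22.8 to 29.6 at 0 weeks, 28.8 to 52.7 at 12 weeks and 32.7 to 40.5 at 60 weeks, with Ptprc, Tyrobp and Lyz2 above background on no array. The brightest probe of the myeloid integrin gene Itgam averaged 3.91 ± 0.31 on the 0 weeks arrays, 4.6 ± 0.69 on the 12 weeks arrays and 4.63 ± 0.15 on the 60 weeks arrays (SD, n = 3 each). Its changes of 0.69 ± 0.32 at 12 and 0.72 ± 0.32 at 60 against 0 weeks did not pass the test (adjusted p = 0.114 and 0.119). Both dimmer Itgam probes had lower means in the treated groups. Group means (0, 12, 60 weeks) were -3.88, -4.29, -4.3 for the dimmest probe and -3.11, -3.3, -3.24 for the middle probe. The higher means of the brightest probe were thus not shared by the gene's other probes. Itgam is part of the summed level above, so that sum carries the same limit. The macrophage gene Aif1 rose by 0.77 ± 0.17 at 60 against 0 weeks (adjusted p = 0.00994), while Csf1r, the receptor gene of a macrophage growth factor, fell by 0.37 ± 0.09 (adjusted p = 0.0169). The part of these cells in the Cd14 change was not tested.

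Tlr3 and Tlr9, the endosomal receptors among the genes chosen, were lower at 60 weeks than at 0 weeks. Tlr13, another endosomal receptor, and Tlr7, both described below, were not lower. Their changes in this comparison were 0.25 ± 0.13 and 0.38 ± 0.3, neither of them called. Tlr3 (chromosome 8) had -0.43, -0.73 and -0.66 on the 0 weeks arrays, -0.35, -1.05 and -0.66 on the 12 weeks arrays and -1.61, -1.84 and -1.48 on the 60 weeks arrays. The 60 weeks arrays lay below all others, and 0 and 12 weeks overlapped. It fell by 1.04 ± 0.19 at 60 against 0 weeks (adjusted p = 0.00368) and by 0.96 ± 0.19 at 60 against 12 weeks (adjusted p = 0.00534). The change was -0.08 ± 0.19 at 12 against 0 weeks (adjusted p = 0.752, 95% interval -0.51 to 0.35). With slide and row as a block the 60 against 0 weeks change was -0.61 and the call ended (adjusted p = 0.218).

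Tlr9 (chromosome 9) had the smallest called changes of the 10 genes. It had 1.19, 1.36 and 1.33 on the 0 weeks arrays, 0.85, 0.95 and 1.11 on the 12 weeks arrays and 0.99, 1.02 and 0.88 on the 60 weeks arrays. The 0 weeks arrays lay above the rest, and 12 and 60 weeks overlapped. It fell by 0.33 ± 0.10 at 12 against 0 weeks (adjusted p = 0.0323) and by 0.33 ± 0.10 at 60 against 0 weeks (adjusted p = 0.0366). At 60 against 12 weeks the change was -0.01 ± 0.10 (adjusted p = 0.969, 95% interval -0.24 to 0.23). The call at 12 against 0 weeks ended in 8 of 22 alternatives, among them the subtraction of chromosome medians (-0.18, adjusted p = 0.199) and leaving out replicate 2 or 3 of 0 weeks or replicate 1 of 12 or of 60 weeks. The call at 60 against 0 weeks ended in 11 of 22, among them leaving out any single 0 or 60 weeks array.

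Myd88 (chromosome 9), the adaptor that most Toll-like receptors share, was higher at 12 weeks than at 0 or 60 weeks. Its 10 spots spread by 3.32% to 5.88% of their mean within an array. It had 1.70, 1.5 and 1.75 on the 0 weeks arrays, 2.52, 1.83 and 2.24 on the 12 weeks arrays and 1.68, 1.57 and 1.75 on the 60 weeks arrays. The 12 weeks arrays lay above all others, replicate 2 only narrowly, and 0 and 60 weeks overlapped. It rose by 0.55 ± 0.17 at 12 against 0 weeks (adjusted p = 0.0309) and fell by 0.53 ± 0.17 at 60 against 12 weeks (adjusted p = 0.0384). At 60 against 0 weeks the change was 0.02 ± 0.17 (adjusted p = 0.936, 95% interval -0.37 to 0.41). The rise at 12 weeks was not called in 7 of 22 alternatives, among them without any single 0 weeks array or without replicate 1 or 3 of 12 weeks, with a highest adjusted p of 0.105. The 60 against 12 weeks call ended in 12 of 22, among them without any single array other than replicate 2 of 12 weeks.

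Of the other mouse Toll-like receptors, Tlr6, Tlr8, Tlr11 and Tlr12 were not well above background on any array. Tlr13 (chromosome X), an endosomal receptor for bacterial ribosomal RNA in mice, had -2.24, -2.32 and -2.44 on the 0 weeks arrays, -2.54, -2.42 and -2.83 on the 12 weeks arrays and -2.00, -2.01 and -2.25 on the 60 weeks arrays. It was called at 60 against 12 weeks only, where it rose by 0.52 ± 0.13 (adjusted p = 0.0165). That call ended without replicate 3 of 12 weeks and without replicate 1 or 2 of 60 weeks. Tlr7 (chromosome X), a receptor for viral RNA rich in uridine, had 2 probes that disagreed. The brighter probe averaged 1.10 ± 0.20 at 0 weeks, 0.72 ± 0.66 at 12 weeks and 1.49 ± 0.20 at 60 weeks (SD, n = 3 each), and the other was above background on no array. No Tlr7 comparison passed the test, and at an unadjusted p under 0.05 only that of 60 with 12 weeks did (0.76 ± 0.30).

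Among proteins that help Toll-like receptors bind ligand, fold or reach endosomes, 6 of 10 genes were tested. The comparison of 12 with 0 weeks called 3 higher and 2 lower, that of 60 with 0 weeks 3 higher and 0 lower, and that of 60 with 12 weeks 2 higher and 1 lower. These calls were 83.3%, 50% and 50% of the tested genes of the list, where 41.8%, 32.8% and 38.3% of all tested genes were called. Their median changes were 0.42, 0.33 and 0.15, and limma's unadjusted p was under 0.05 for 0 falls at 60 against 0 weeks as well. Lbp, the secreted lipopolysaccharide-binding protein, was above background on no 0 weeks array and had 3.53, -2.30 and 3.16 at 12 weeks and -2.73, -1.77 and -1.44 at 60 weeks. It passed the filter only through treated arrays, so in the counts above it could only come out higher than at 0 weeks. It was at least 73.7-fold higher at 12 than at 0 weeks (adjusted p = 0.00171), with replicate 2 far below the other 12 weeks arrays. That bound was 271-fold without replicate 2, 36.1-fold without replicate 1 and 40.9-fold without replicate 3 of 12 weeks, and the change fitted with normexp was 4.59 on the log2 scale. At 60 weeks it was at least 6.78-fold higher than at 0 weeks (adjusted p = 0.0225), a call that ended in 8 of 20 alternatives, among them normexp (1.53, adjusted p = 0.31). The spread behind the 0.0225 also takes in the 12 weeks arrays, whose SD was 3.26.

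Ly96, which encodes the subunit of the Tlr4 complex that holds the lipid, had 1.59, 1.64 and 1.72 on the 0 weeks arrays, 1.96, 1.85 and 1.92 on the 12 weeks arrays and 2.04, 2.08 and 1.94 on the 60 weeks arrays. The 0 weeks arrays lay below the rest. It rose by 0.37 ± 0.09 at 60 against 0 weeks (adjusted p = 0.0126) and by 0.26 ± 0.09 at 12 against 0 weeks (adjusted p = 0.0417), and the 60 against 0 weeks call ended in 4 of 22 alternatives. Hsp90b1, the endoplasmic reticulum chaperone that folds most Toll-like receptors, was lowest at 12 weeks, where it averaged 5.91 ± 0.37 against 7.17 ± 0.07 at 0 weeks (SD, n = 3 each). It fell by 1.26 ± 0.19 at 12 against 0 weeks (adjusted p = 0.00138) and rose by 1.21 ± 0.19 at 60 against 12 weeks (adjusted p = 0.00211). Hsp90b1 lies on chromosome 10, whose tested genes had a median change of 0.34 at 60 against 12 weeks. Cnpy3, a co-chaperone of Hsp90b1 for these receptors, fell by 0.47 ± 0.12 at 12 against 0 weeks (adjusted p = 0.0166), a call that ended in 5 of 22 alternatives. Unc93b1, which carries endosomal Toll-like receptors from the endoplasmic reticulum, rose by 1.56 ± 0.22 at 60 against 0 weeks (adjusted p = 0.00106) and by 0.98 ± 0.22 at 60 against 12 weeks (adjusted p = 0.00925). Tested genes on its chromosome, 19, had median changes of 0.37 and 0.44 in those comparisons, and with chromosome medians subtracted the 60 against 12 weeks call ended. Both calls of Unc93b1 ended with slide and row as a block (adjusted p = 0.142 and 0.08). Slc15a4, a lysosomal transporter of histidine and peptidoglycan fragments, rose by 1.01 ± 0.17 at 12 against 0 weeks (adjusted p = 0.00194) and fell by 0.71 ± 0.17 at 60 against 12 weeks (adjusted p = 0.0111).

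**Figure D3:**
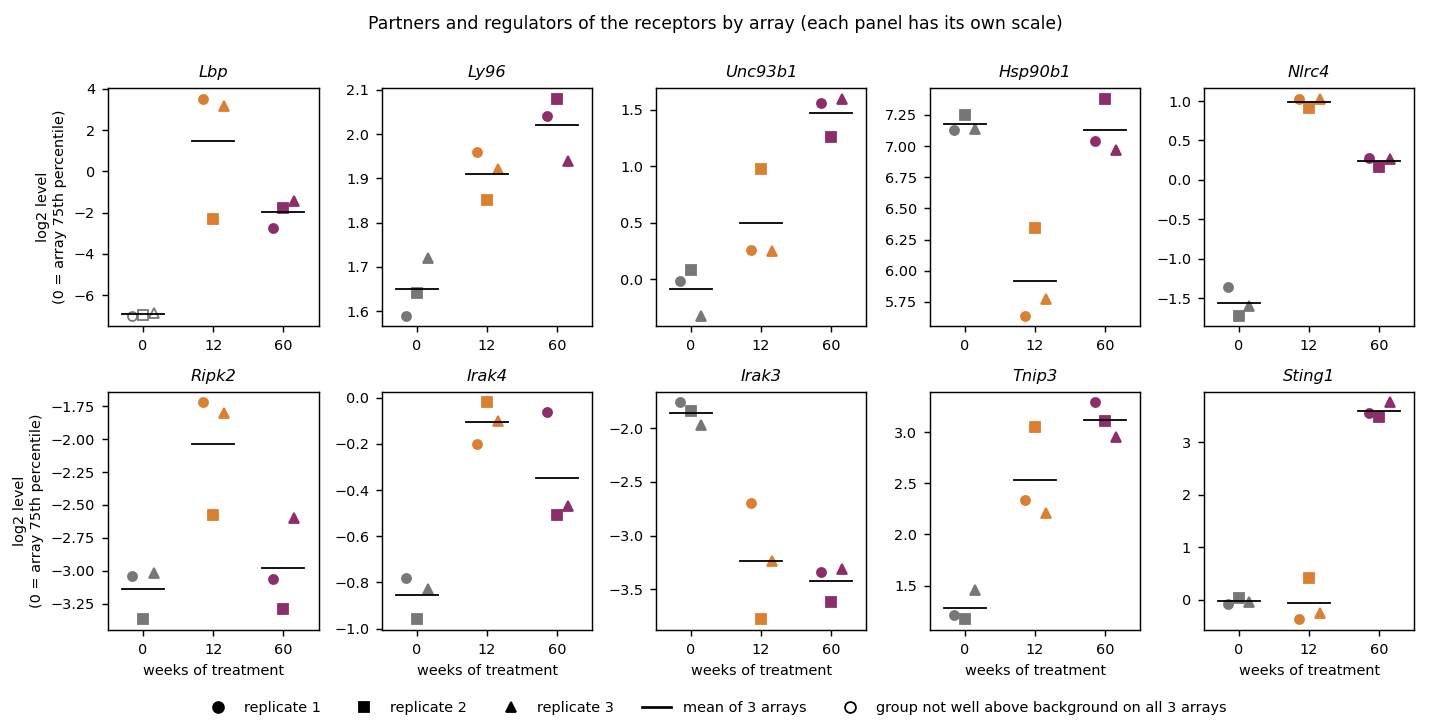
Level of 10 partners and regulators on every array (vertical axis, log2 signal relative to the array's 75th percentile, a scale of its own in each panel) against weeks of treatment, with a bar at the mean of 3 arrays and open symbols where the group was not above background on all 3 arrays. Nlrc4 is highest at 12 weeks, Sting1 stands above the other groups at 60 weeks only, and replicate 2 of 12 weeks lies far below replicates 1 and 3 for Lbp.

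Of 26 TIR adaptors, kinases, ubiquitin ligases and interferon regulatory factors downstream of the receptors, 22 were tested. The comparison of 12 with 0 weeks called 7 higher and 2 lower, that of 60 with 0 weeks 10 higher and 0 lower, and that of 60 with 12 weeks 7 higher and 3 lower. The calls made up 40.9%, 45.5% and 45.5% of the list, against the 41.8%, 32.8% and 38.3% called among all tested genes. Their median changes were 0.18, 0.19 and 0.16, and 0 had an unadjusted p under 0.05 for a fall at 60 against 0 weeks. At 12 weeks Traf3, an adaptor on the branch to type I interferon, rose by 0.99 ± 0.14 (adjusted p = 0.00106), Map3k7, the kinase TAK1, by 1.10 ± 0.18 (adjusted p = 0.00187), and Irak4, the kinase that Myd88 recruits, by 0.75 ± 0.14 (adjusted p = 0.00304). Traf3 lies on chromosome 12 and Map3k7 on chromosome 4, whose tested genes had median changes of 0.23 and 0.26 at 12 against 0 weeks. Both genes stayed called in all 22 alternatives. Tab1, a binding partner of TAK1, fell by 0.59 ± 0.11 (adjusted p = 0.0045). Against 0 weeks, Tirap, the sorting adaptor that brings Myd88 to Tlr2 and Tlr4, rose at 60 weeks by 0.83 ± 0.14 (adjusted p = 0.00225). In the same comparison the kinase gene Map3k8 rose by 1.43 ± 0.21 (adjusted p = 0.00149). The ubiquitin ligase genes Peli3 and Peli1 rose by 1.35 ± 0.19 and 0.49 ± 0.09 (adjusted p = 0.00129 and 0.00364). Peli3 was well above background on 1 of the 3 arrays at 0 weeks, and with normexp its change was 0.47 (adjusted p = 0.00879). It lies on chromosome 19, whose tested genes had a median change of 0.37 at 60 against 0 weeks. Peli1, Tab1, Map3k8 and Tab3 were higher at 60 than at 12 weeks, by 0.46 ± 0.09, 0.51 ± 0.11, 0.95 ± 0.21 and 0.37 ± 0.08 (adjusted p between 0.00496 and 0.0101). With slide and row as a block the 60 against 0 weeks calls of Tirap (adjusted p = 0.0516), Peli3 (0.0982) and Peli1 (0.143) ended, as did that of Tab1 at 60 against 12 weeks (0.0766).

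Around the NOD receptors, 15 of 22 partner and family genes were tested. In the 12 against 0 weeks fit 2 were called higher and 0 lower, then 5 higher and 2 lower for 60 against 0 weeks and 4 each way for 60 against 12 weeks. That is 13.3%, 46.7% and 53.3% of the list, beside 41.8%, 32.8% and 38.3% over all tested genes. Their median changes were 0.20 (0.10 with Nlrp10 at its bound), 0.17 and -0.11, and limma's unadjusted p was under 0.05 for 2 falls at 12 against 0 weeks. Nlrc4, which forms the inflammasome that answers flagellin and needle proteins bound by Naip proteins, had -1.36, -1.72 and -1.60 on the 0 weeks arrays, 1.03, 0.91 and 1.03 on the 12 weeks arrays and 0.28, 0.16 and 0.27 on the 60 weeks arrays. The groups did not overlap, with 12 weeks highest and 0 weeks lowest. It rose by 2.55 ± 0.11 at 12 against 0 weeks (adjusted p = 1.95e-06) and by 1.80 ± 0.11 at 60 against 0 weeks (adjusted p = 1.23e-05), and fell by 0.75 ± 0.11 at 60 against 12 weeks (adjusted p = 0.00158).

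Ripk2, the kinase through which Nod1 and Nod2 signal, had -3.04, -3.37 and -3.02 on the 0 weeks arrays, -1.72, -2.58 and -1.80 on the 12 weeks arrays and -3.06, -3.29 and -2.60 on the 60 weeks arrays. It rose by 1.11 ± 0.26 at 12 against 0 weeks (adjusted p = 0.0105). Like Tlr4, Ripk2 lies on chromosome 4, whose tested genes had a median change of 0.26 in this comparison. Nlrx1, a mitochondrial family member, fell by 1.18 ± 0.14 at 60 against 0 weeks (adjusted p = 0.000427) and by 0.85 ± 0.14 at 60 against 12 weeks (adjusted p = 0.00241). The dimmer Nlrx1 probe averaged -0.22 at 0 weeks, -0.47 at 12 weeks and -0.40 at 60 weeks. It fell less against 0 weeks and did not fall from 12 to 60 weeks. Slc46a3, a lysosomal transporter, rose by 1.80 ± 0.25 at 60 against 12 weeks (adjusted p = 0.00121). Nlrp10 was above background on no 0 weeks array and at least 2.26-fold higher at 60 weeks (adjusted p = 0.00713). It passed the filter only through the 60 weeks arrays, so in the counts above it could only come out higher than at 0 weeks. With normexp the Nlrp10 change was 0.50 (adjusted p = 0.0294). Naip6 rose by 2.17 ± 0.33 at 60 against 12 weeks (adjusted p = 0.00174) and Naip1 by 1.82 ± 0.28 at 60 against 0 weeks (adjusted p = 0.00171). The Naip genes are near-identical neighbours, and the 2 probes of Naip1 moved in opposite directions at 60 weeks, so the identity of this signal is uncertain. With the probes of a gene averaged, the Naip1 change was 0.21 and no longer called (adjusted p = 0.535). The 60 against 0 weeks calls of Naip1 (adjusted p = 0.21) and Nlrp10 (adjusted p = 0.207) also ended with slide and row as a block.

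Of 18 genes listed as inhibitors of these pathways, 17 were tested. In the 12 against 0 weeks fit 2 were called higher and 2 lower, then 5 higher and 2 lower for 60 against 0 weeks and 2 each way for 60 against 12 weeks. The shares called were 23.5%, 41.2% and 23.5% of the list and 41.8%, 32.8% and 38.3% of all tested genes. Their median changes were 0.29, 0.08 and -0.04, or 0.02, 0.06 and 0 with Il1rl1, which was near background, at its bound or at 0. Irak3, a decoy kinase that restrains Myd88 signalling, had -1.76, -1.84 and -1.97 on the 0 weeks arrays, -2.70, -3.78 and -3.24 on the 12 weeks arrays and -3.34, -3.62 and -3.31 on the 60 weeks arrays. Its 0 weeks arrays lay above all others. It fell by 1.38 ± 0.24 at 12 against 0 weeks (adjusted p = 0.00265) and by 1.57 ± 0.24 at 60 against 0 weeks (adjusted p = 0.00172). Tnip3, a ubiquitin-binding partner of A20, rose by 1.25 ± 0.22 at 12 against 0 weeks (adjusted p = 0.00245) and by 1.84 ± 0.22 at 60 against 0 weeks (adjusted p = 0.000425). Its relative Tnip1 rose in the same comparisons, by 0.62 ± 0.10 at 12 weeks (adjusted p = 0.00148) and 0.54 ± 0.10 at 60 weeks (adjusted p = 0.00363). Ptpn6, a phosphatase, fell by 0.51 ± 0.15 at 12 against 0 weeks (adjusted p = 0.0286), a call that ended in 9 of 22 alternatives, and rose by 0.54 ± 0.15 at 60 against 12 weeks (adjusted p = 0.0253), which ended in 6 of 22. At 60 against 12 weeks the deubiquitinase gene Otud7b fell by 1.49 ± 0.39 (adjusted p = 0.0189) and Tollip, which binds Irak kinases, by 0.35 ± 0.10 (adjusted p = 0.0246), calls that ended in 4 of 21 and 9 of 22 alternatives. The middle Tollip probe also averaged lower at 60 than at 12 weeks (0.18 against 0.49), but the dimmest averaged higher (-0.53 against -0.76). With the probes of a gene averaged, the Tollip call ended. Rnf31 rose by 0.71 ± 0.10 both at 60 against 0 weeks (adjusted p = 0.000878) and at 60 against 12 weeks (adjusted p = 0.00103), although it is known as the catalytic subunit of a ubiquitin ligase that promotes NF-kB signalling, so the list's name does not describe it. With slide and row as a block the 60 against 0 weeks calls of Irak3 (-0.82, adjusted p = 0.159), Tnip3 (adjusted p = 0.0622) and Rnf31 (adjusted p = 0.064) ended.

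Downstream, 30 of 33 known NF-kB target genes were tested. The others, Il1b, Il6 and Ccl20, were well above background on no array. By 12 weeks 18 were called higher and 1 lower, with a median change of 1.0. The 60 weeks arrays had 21 called higher and 0 lower than at 0 weeks, with a median of 1.12 (1.03 with Cxcl2, Ccl2 and Cxcl10 at their bounds) and 0 falls at an unadjusted p under 0.05, and 6 higher and 5 lower than at 12 weeks, with a median of -0.08. Of these tested targets 63.3%, 70% and 36.7% were called, where the shares over all tested genes were 41.8%, 32.8% and 38.3%. Cxcl2, Ccl2 and Cxcl10 were above background on no 0 weeks array. They passed the filter only through treated arrays, so in these counts they could only come out higher than at 0 weeks. The neutrophil chemokine gene Cxcl5 rose by 6.76 ± 0.23 at 12 against 0 weeks (adjusted p = 5.24e-07) and by 5.71 ± 0.23 at 60 against 0 weeks (adjusted p = 1.62e-06). Its relative Cxcl2 was above background on no array at 0 weeks. It rose at least 23.6-fold by 12 weeks (adjusted p = 2.05e-06) and at least 7.1-fold by 60 weeks (adjusted p = 1.05e-05). With normexp these Cxcl2 changes were 2.99 and 1.66 on the log2 scale, less than the bounds. Csf2, a myeloid growth factor, rose by 5.15 ± 0.34 at 12 against 0 weeks (adjusted p = 1.58e-05) and by 6.70 ± 0.34 at 60 against 0 weeks (adjusted p = 4.7e-06). Ptgs2, which makes prostaglandins, rose by 3.44 ± 0.16 at 12 against 0 weeks (adjusted p = 2.71e-06) and by 2.16 ± 0.16 at 60 against 0 weeks (adjusted p = 3.38e-05), and it was lower at 60 than at 12 weeks by 1.28 ± 0.16 (adjusted p = 0.000719). Ccl2, a monocyte chemokine above background on no 0 weeks array, was at least 42.8-fold higher at 12 weeks and at least 2.75-fold higher at 60 weeks (adjusted p = 1.88e-05 and 0.00132), and at 60 against 12 weeks it fell by 3.96 ± 0.51 (adjusted p = 0.000813). Ccl5, a chemokine that attracts T cells, rose by 2.80 ± 0.14 at 60 against 0 weeks (adjusted p = 5.26e-06) and by 2.60 ± 0.14 at 60 against 12 weeks (adjusted p = 9.15e-06). Nfkb2, a subunit of NF-kB itself, rose by 0.81 ± 0.09 at 60 against 12 weeks (adjusted p = 0.00037). It lies on chromosome 19, whose tested genes had a median change of 0.44 in this comparison. Over the 22 alternatives the Nfkb2 change was 0.38 to 0.87 and stayed called.

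**Figure D4:**
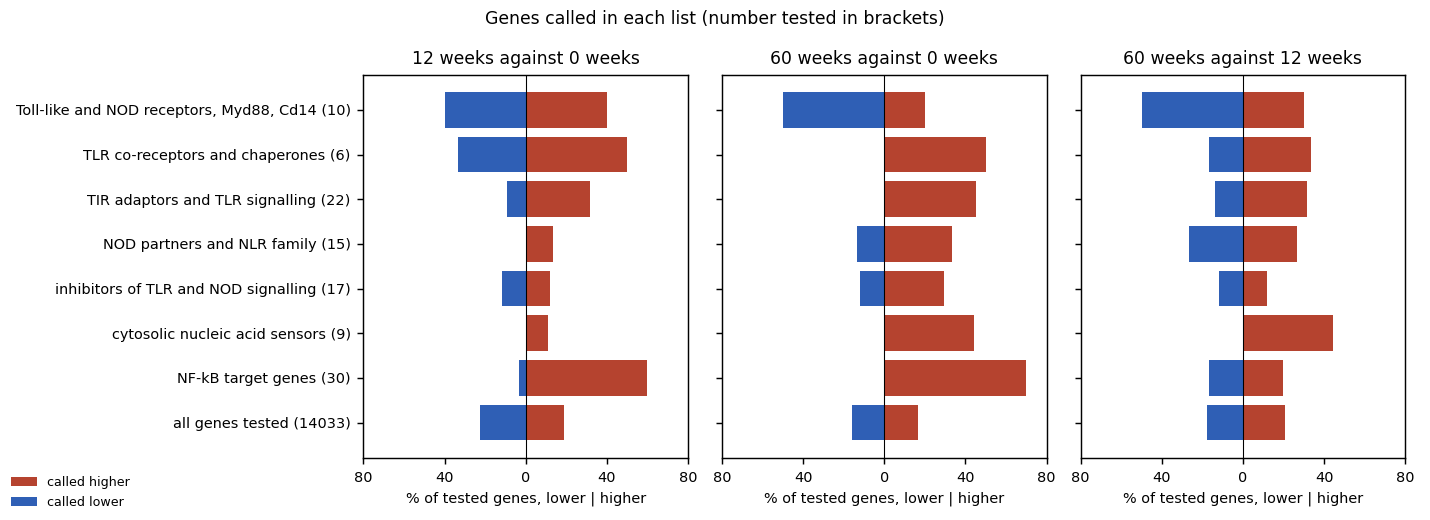
Share of tested genes called higher (right of 0) and lower (left of 0), in percent (horizontal axis), for the 10 genes, their partner lists and all tested genes (vertical axis), in each comparison. The number tested stands in brackets. The 10 genes were called in both directions in each comparison, and the NF-kB targets were called mostly higher in both comparisons with 0 weeks. Genes above background on no 0 weeks array passed the filter only through treated arrays and could only come out higher there.

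The genes whose levels followed each receptor most closely over the 9 arrays were taken from all tested genes, for the 7 of the 10 genes that were above background on every array. The correlations are descriptions, since the arrays share a scaling and fall into 3 groups. Nod2 was followed by Micall2 and Rhoc (Pearson r = 0.989 each) and St8sia4 (0.988). Tlr4 was followed by Hsph1 (0.992), a heat shock protein, Cldn12 (0.990), a claudin, and Maoa (0.987). Cd14 was followed by Mmp14 (0.987), a membrane-bound metalloproteinase, Ndrg4 and Ier3 (0.976 each). Tlr2 was followed by Prx (0.989), Selenop (0.981), a plasma selenoprotein, and Aldh1a1 (0.973), which makes retinoic acid. Tlr3 was followed by Sugp2, C87436 (0.986 each) and Cyb5r1 (0.985). Myd88 was followed by Kctd20 (0.990), Gas8 (0.987) and Ppp4r1 (0.982). Tlr9 was followed by Lgals3 (0.968), the gene of galectin-3, Vmn1r25 (0.965) and Scn1a (0.960).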

How the data were processed

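Each spot's intensity in the deposited scanner files was measured by the authors with Agilent Feature Extraction 10.7.3.1, per the file headers, as a background-subtracted and spatially detrended value. The deposited value table holds the same arrays as a signal on a linear scale. Its columns equal the intensities divided by a constant near each array's 75th percentile (0.993 to 0.999 of it), and their medians were 0.0582 to 0.0733. It lists 5 of the 10 genes and served as an alternative only.

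Per array, 117 to 163 of 59305 spots carried a non-uniformity or population outlier call and were left out. The remaining spots of each probe were averaged, divided by the array's 75th percentile and put on the log2 scale. Gene names came from matching RefSeq accessions to the GRCm38.p6 annotation. Of 55681 probes, 27235 had 1 symbol, 0 had several and 28446 had none. Kept were probes that 2 or more of the 3 arrays in some group showed well above background, and the brightest represented its gene. Group means were fitted over 9 arrays with lmFit and eBayes of limma 3.58.1 under R 4.3.3, two-sided, without a block for replicate numbers. Deviations of same-numbered arrays from their group means correlated at -0.08 to 0.20. With 3 arrays per group this cannot tell whether same-numbered arrays share an origin. A gene above background on no array of a group has only a bound, which holds for this background correction. With normexp, the changes of Tlr5, Lbp, Nlrp10 and Cxcl2 fell short of their bounds. The adjusted p beside a bound comes from the fit of the probe's own values. Each SE and p uses a spread shared over all groups, so a group outside the comparison contributes to it. The fit was tested on simulated data. The number of arrays, 3 per group, limits the precision.

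The 10 genes, the partner lists and the rules for named genes were chosen with earlier results of these data known. The text names the 10 genes, the other Toll-like receptors, up to 4 genes per list and comparison in order of adjusted p, and the 3 genes closest in pattern to each receptor. Ly96 at 12 against 0 weeks and the values of Ptgs2 and Ccl2 against 0 weeks were added after its value was seen. The 22 alternatives covered background correction, scaling, filter, probes, blocks for replicate number, slide and slide row, chromosome medians, array weights, the value table and each array left out. Normexp was run on median signals, a choice made after seeing the files, which hold no mean signals.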

Additional observations from a re-analysis of the deposited data

How the results depend on the processing

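The counts of called genes among the 10 were 8 (12 against 0 weeks), 7 (60 against 0 weeks) and 8 (60 against 12 weeks). With the deposited value table, which lists 5 of the genes, they were 5, 3 and 3. With only probes above background on all 9 arrays, which leaves out Tlr1, Tlr5 and Nod1, the count was 5 at 12 against 0 weeks and 5 at 60 against 12 weeks. With the slide row as a block it was 2 at 60 against 0 weeks and 5 at 60 against 12 weeks. At 12 against 0 weeks the row block ended the calls of Tlr1 (adjusted p = 0.0555) and Tlr5 (adjusted p = 0.096). Leaving out each array gave 6 to 8, 5 to 7 and 5 to 8, and the lowest at 60 against 12 weeks came without replicate 3 of 12 weeks. The replicate block gave 8, 6 and 8, and the slide block, which equals leaving out replicate 3 of 60 weeks, gave 8, 6 and 6. Over all tested genes, 5860, 4600 and 5378 were called. With the row block these counts were 4473, 1392 and 3469, and array weights gave 7605 at 60 against 0 weeks.

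Of 636 results of the 10 genes under alternatives, 560 kept direction and call, 56 lost the call and 1 gained it (Tlr4 at 60 against 0 weeks with array weights, 0.48, adjusted p = 0.00844). A change of sign occurred in 19, all for changes that were not called. At 12 against 0 weeks, Tlr2 was 0.30 with the row block, 0.07 with array weights and 0.14 without replicate 2 of 12 weeks. Tlr3 was 0.26, 0.05 and 0.10 in the same settings and 0.01 without replicate 1 of 0 weeks. Leaving out single arrays gave -0.40 to 0.14 for Tlr2 and -0.25 to 0.10 for Tlr3. At 60 against 0 weeks, Myd88 was -0.02 with the slide block and without replicate 3 of 60 weeks and -0.05 without replicate 2 of 0 weeks, and Tlr1 was 0.09 with the row block. At 60 against 12 weeks, Tlr9 was 0.02 with normexp, 0.03 with the slide block and without replicate 3 of 60 weeks and 0.06 without replicate 3 of 12 weeks. Cd14 was 0.04 with the row block, 0.10 with array weights, 0.00 without replicate 1 and 0.05 without replicate 2 of 12 weeks. Leaving out single arrays gave -0.07 to 0.06 for Tlr9 and -0.18 to 0.05 for Cd14. The cause of these moves was not tested. Signals near background limit Tlr1 and Nod1 at 12 weeks and Tlr5 at 60 weeks.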

Other observations

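Sensors of nucleic acids in the cytosol, which work beside the endosomal Toll-like receptors, were followed as a further list. Of 12 genes listed, 9 were on the array and tested. The 12 against 0 weeks comparison called 1 of them higher and 0 lower, with a median change of -0.04. Those of 60 against 0 weeks and of 60 against 12 weeks called 4 higher and 0 lower each, with medians of 0.50 and 0.30. The shares called were 11.1%, 44.4% and 44.4% of the list, where 41.8%, 32.8% and 38.3% of all tested genes were called. At an unadjusted p under 0.05, limma counted falls for 1 gene at 12 against 0 weeks and for 0 in the other comparisons. Sting1, the adaptor that relays the DNA sensor Cgas, had -0.07, 0.03 and -0.05 on the 0 weeks arrays, -0.37, 0.42 and -0.25 on the 12 weeks arrays and 3.55, 3.48 and 3.76 on the 60 weeks arrays. All 60 weeks arrays lay above the rest, and 0 and 12 weeks overlapped. It rose by 3.62 ± 0.20 at 60 against 0 weeks (adjusted p = 6.84e-06) and by 3.66 ± 0.20 at 60 against 12 weeks (adjusted p = 7.51e-06), and it was called in both under every alternative that gave a value for it.

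Dhx58, a regulator of RNA sensing, rose by 1.51 ± 0.30 at 60 against 0 weeks (adjusted p = 0.00612) and by 1.97 ± 0.30 at 60 against 12 weeks (adjusted p = 0.00182). The brighter probe of Ddx58, the gene of the RNA sensor RIG-I, rose by 0.68 ± 0.14 at 60 against 0 weeks (adjusted p = 0.00648) and by 0.67 ± 0.14 at 60 against 12 weeks (adjusted p = 0.00672). Ddx58 lies on chromosome 4, whose tested genes had a median change of 0.21 at 60 against 0 weeks. Its other probe was lower at 12 weeks, -2.56, -2.00 and -2.55, than at 0 weeks, -1.36, -1.47 and -1.38, while the brighter probe overlapped between these groups. Eif2ak2, the kinase PKR, rose by 0.60 ± 0.12 at 12 against 0 weeks (adjusted p = 0.00588) and by 0.50 ± 0.12 at 60 against 0 weeks (adjusted p = 0.0156). Aim2, a DNA sensor of an inflammasome, rose by 0.62 ± 0.21 at 60 against 12 weeks (adjusted p = 0.045), a call that ended in 13 of 21 alternatives. With slide and row as a block the 60 against 0 weeks calls of Dhx58 (adjusted p = 0.153), Ddx58 (adjusted p = 0.0623) and Eif2ak2 (adjusted p = 0.0922) ended, and that of Sting1 stayed.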
